A study of Homo sapiens with 6 samples.

Results

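OIP5-AS1, TUG1 and KCNQ1OT1 are studied as long noncoding RNAs, transcripts not thought to encode a protein, although GENCODE release 44 types TUG1 as protein_coding. They were followed along their length through 6 PAR-CLIP libraries by taking every site on the gene's own strand that lies within its span in GENCODE release 44 on hg19. This gave 1372 sites in these 3 genes, of 10639684 sites in the series as a whole. Split by library, the 3 RNAs held 136, 33 and 39 sites in G20, G35 and G45, and 269 in HuR replicate 1, 424 in HuR replicate 2 and 471 in Total.

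All libraries came from HEK293, an established human embryonic kidney cell line, labelled with 4-thiouridine (4SU) and irradiated at UV 365 nm, with RNA partially digested by RNase T1. Background was taken from lysates with FLAG-GFP, a tagged fluorescent protein that is not an RNA-binding protein, as 3 gel slices at about 20, 35 and 45 kDa (G20, G35 and G45), each a single library of the control. The FLAG-HuR IP was sequenced as 2 replicates from cells with inducible HuR, and HuR is an RNA-binding protein of the ELAV family with a preference for U-rich and AU-rich sequence. Total was a single library without IP, made after proteinase K digestion and rRNA depletion. The HuR and GFP lines each carry an added, inducible and tagged protein. In PAR-CLIP the crosslinked 4SU is read as a T-to-C conversion, and each site carries a count of reads and a count of conversion events.

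OIP5-AS1, also called Cyrano, is a mostly cytoplasmic RNA known for a conserved site of extensive pairing to the microRNA miR-7. TUG1 is a widely expressed RNA that is spliced in part and retains introns in many cells. KCNQ1OT1 is a very long, mostly unspliced nuclear RNA, transcribed antisense to KCNQ1 from the paternal allele and known for silencing genes of an imprinted cluster. OIP5-AS1 spans chr15:41576156-41614590 on the plus strand, TUG1 spans chr22:31365231-31375381 on the plus strand, and KCNQ1OT1 spans chr11:2618538-2721233 on the minus strand. GENCODE release 44 types OIP5-AS1 and KCNQ1OT1 as lncRNA and TUG1 as protein_coding. Positions within the RNAs are given relative to the transcripts OIP5-AS1-201 (4 exons, 8881 nt), TUG1-201 (4 exons, 5017 nt) and KCNQ1OT1-201 (1 exon, 91667 nt).

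The sites that carry the comparison are shown first, as the gene strand of GRCh37 read 5′ to 3′, cut to the middle 30 nt where a site is longer. The first set holds, for each RNA, the site with the most HuR reads among those without a read in any background slice, and capitals mark runs of 3 or more T, where 4SU can crosslink.
OIP5-AS1, HuR without background (chr15:41591232-41591261): tcacattatatagttacTTTTTTTaataaa
TUG1, HuR without background (chr22:31368485-31368514): aacttaaaatctcagttcTTTTTatggcac
KCNQ1OT1, HuR without background (chr11:2696664-2696693): TTTTTTccaTTTTcagatcatcTTTTaTTT
The second set holds, for each RNA, the site with the most reads in any background slice, and capitals mark runs of 3 or more T or of 3 or more G.
OIP5-AS1, most reads in G45 (chr15:41576777-41576793): cttGGGaattgcattcg
TUG1, most reads in G20 (chr22:31365773-31365802): tacTTTgccTTTTcctccttatgccgcctt
KCNQ1OT1, most reads in G45 (chr11:2706794-2706812): gtgctgtatggaaGGGcca
Each of the 3 HuR stretches shown held a run of at least 5 T and none of the 3 background stretches did, but this did not hold for all leading sites. TTTTT was found in the 41 nt centred on 4 of the 9 leading HuR sites without background, 3 for each RNA, and on 2 of the 25 leading background sites, up to 3 for each RNA and slice. Here and below, the reads of a library at a site are those of all its sites that overlap the interval by at least 1 bp.

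The libraries differed in depth. Summed over all sites, G20 held 38644636 reads, G35 6187300 and G45 7539669, with 9525265 in HuR replicate 1, 32111810 in HuR replicate 2 and 35924998 in Total. A floor of 3 reads corresponded to 0.0776 RPM (reads per 1000000 reads of the library) in G20, 0.485 in G35, 0.398 in G45, 0.315 in HuR replicate 1, 0.0934 in HuR replicate 2 and 0.0835 in Total. Intervals and floors cover counting error only, since the reads carried no molecular identifiers. In the fits the scaling factor of G20 was 0.194, compared to 2.23 and 2.11 in HuR replicates 1 and 2, so that a value in RPM and a value after TMM scaling differ most for G20. TMM sets the scale from the bulk of genes rather than from the total. With totals alone, the median gene lay 1.58 higher in HuR on the log2 scale, compared to -0.02 with TMM.

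Reads from all 3 RNAs were present in background. OIP5-AS1 had 61, 33 and 45 reads in G20, G35 and G45, and 211 and 2278 in HuR replicates 1 and 2 and 755 in Total. TUG1 had 226, 82 and 71 reads in the slices, 244 and 2315 in HuR replicates 1 and 2, and 2488 in Total. KCNQ1OT1 had 48, 27 and 102 reads in the slices, 117 and 530 in HuR replicates 1 and 2, and 325 in Total. In RPM, OIP5-AS1 was at 1.58 to 5.97 in the slices and at 22.2 and 70.9 in HuR, and TUG1 was at 5.85 to 13.3 in the slices and at 25.6 and 72.1 in HuR, so that for both RNAs each HuR replicate lay above every slice. The share of all genes with this order in RPM was not computed. With library totals the median gene was itself 1.58 higher in HuR on the log2 scale. KCNQ1OT1 was at 1.24, 4.36 and 13.5 RPM in G20, G35 and G45, and the G45 value lay above the 12.3 RPM of HuR replicate 1 and below the 16.5 RPM of HuR replicate 2. On this scale the exact permutation test of HuR against GFP gave a two-sided p = 0.2 for OIP5-AS1 and TUG1, which is the smallest that 2 against 3 libraries allow, and p = 0.4 for KCNQ1OT1.

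**Figure D1:**
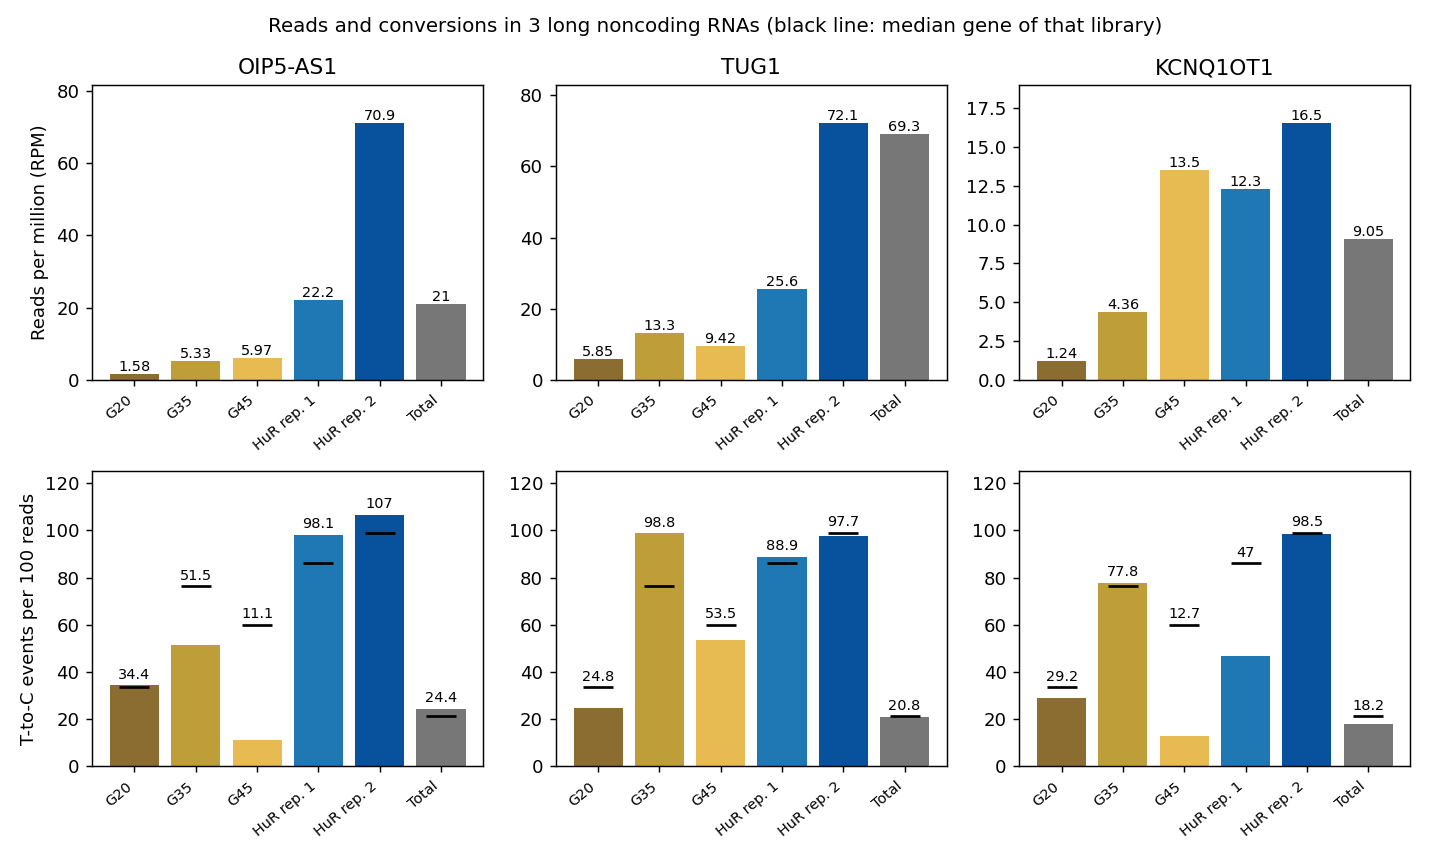
The plot gives RPM (upper row) and T-to-C conversion events per 100 reads (lower row) for OIP5-AS1, TUG1 and KCNQ1OT1 in each of the 6 libraries, with 1 bar per library and, in the lower row, a black line at the median of 7746 genes in that library. For OIP5-AS1 both HuR bars lie above the 3 slices in both rows, whereas for TUG1 the 98.8 events of G35 reach the HuR bars and for KCNQ1OT1 the 13.5 RPM of G45 do.

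To test whether the RNAs were enriched in the HuR IP over background, reads per gene were compared across all genes with edgeR's quasi-likelihood test, with Benjamini-Hochberg adjustment. None of the 3 RNAs passed. After TMM scaling OIP5-AS1 was at 12.3, 9.77 and 11.8 CPM (counts per 1000000 after scaling) in G20, G35 and G45 and at 18.1 and 42.5 CPM in HuR, a log2 difference of 1.43 (SE 0.76, edgeR adjusted p = 0.241). Both HuR replicates lay above all slices, as they did for 22.7% of the 20138 genes tested. TUG1 was at 45.5, 24.3 and 18.6 CPM in the slices and at 20.9 and 43.2 CPM in HuR, and G20 exceeded both HuR replicates (log2 difference 0.12, SE 0.75, edgeR adjusted p = 0.936). KCNQ1OT1 was at 9.66, 7.99 and 26.7 CPM in the slices and at 10.03 and 9.89 CPM in HuR, so that on this scale G45 stood above both HuR replicates (log2 difference -0.57, SE 0.84, edgeR adjusted p = 0.713). In this comparison 0.775% of all genes were called higher in HuR and 3.77% were called lower. The p-values measure the spread between gel slices of one control and between 2 HuR libraries. The call for TUG1 depended on what was counted: with each site counted once instead of its reads, TUG1 was lower in HuR, with a log2 difference of -1.02 (edgeR adjusted p = 0.0146, over a range of 0.0146 to 0.993 across its alternatives). Counted in this way, 14.5% of 13801 genes were called lower. Without HuR replicate 2 its log2 difference was -0.47.

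HuR reads of OIP5-AS1 carried more conversions than its background reads. In HuR, OIP5-AS1 carried 98.1 and 106.7 conversion events per 100 reads in replicates 1 and 2, a mean of 102.4 ± 6.06 (SD, n = 2). In G20, G35 and G45 it carried 34.4, 51.5 and 11.1, a mean of 32.4 ± 20.3 (SD, n = 3), and in Total 24.4. The groups did not overlap (exact permutation test, two-sided p = 0.2, the smallest possible), as for 45.6% of the 7746 genes with at least 20 reads in every library. Compared to these genes, 91.0% in HuR replicate 1 and 92.5% in HuR replicate 2 had fewer conversions than OIP5-AS1, and in G20, G35 and G45 the shares were 51.7%, 21.2% and 4.96%. The deposited clusters are themselves selected for conversions, and OIP5-AS1 had a single cluster in background, with 13 reads in G35.

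TUG1 did not show such a gap. It carried 88.9 and 97.7 conversion events per 100 reads in HuR and 24.8, 98.8 and 53.5 in G20, G35 and G45, so that G35 exceeded both HuR replicates (exact permutation test, two-sided p = 0.6). Total had 20.8. KCNQ1OT1 carried 47.0 and 98.5 in HuR and 29.2, 77.8 and 12.7 in the slices, and here HuR replicate 1 fell within the background range (exact permutation test, two-sided p = 0.4). Converted reads were thus present in background at all 3 RNAs. Over all sites the slices carried 18.7, 61.7 and 56.2 events per 100 reads, and the others 48.6 and 87.3 in HuR and 36.9 in Total.

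Next, the HuR sites were overlapped with background sites on the same strand, with at least 1 shared bp and any background read. TUG1 had the largest share of HuR reads at such sites among the 3 RNAs. In TUG1 it was 55.3% (135 of 244 reads, 95% Wilson interval 49.1 to 61.4) in HuR replicate 1 and 57.6% (1333 of 2315 reads, 55.6 to 59.6) in HuR replicate 2, a mean of 56.5% ± 1.59 (SD, n = 2). In OIP5-AS1 it was 15.2% (32 of 211 reads, 10.9 to 20.6) and 17.52% (399 of 2278 reads, 16.01 to 19.1), a mean of 16.3% ± 1.66 (SD, n = 2). The intervals of TUG1 and OIP5-AS1 were apart in both replicates, by far more than the spread between replicates. Among 7803 genes with at least 100 reads in each HuR replicate the median share was 20.4%, with quartiles at 10.96% and 40.5%, and 87.8% of these genes had a smaller share than TUG1 and 41.5% a smaller share than OIP5-AS1. Most of the overlapping background came from G20, the deepest slice: without G20 the mean share fell to 25.3% in TUG1 and to 6.29% in OIP5-AS1. The same overlap computed for Total gave 53.6% in TUG1 and 12.3% in OIP5-AS1, close to the HuR values.

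KCNQ1OT1 differed between the replicates, with 47.0% (55 of 117 reads, 38.2 to 56.0) in HuR replicate 1 and 6.98% (37 of 530 reads, 5.11 to 9.47) in HuR replicate 2. The difference rested on a single site of 19 nt, chr11:2706794-2706812, which held 47 of the 117 reads of HuR replicate 1 and 85 of the 102 reads of G45, but 1 read each in G35 and HuR replicate 2 and none in G20 and Total. Over all libraries these reads carried 1 conversion event, in G45. Without this site, which was singled out after its values were seen, the share was 11.4% (5.91 to 20.96) in HuR replicate 1 and 6.81% (4.96 to 9.28) in HuR replicate 2, and the conversion events of HuR replicate 1 rose from 47.0 to 78.6 per 100 reads. KCNQ1OT1 was then at 1.24, 4.20 and 2.25 RPM in the slices and at 7.35 and 16.5 RPM in HuR, and its log2 difference after TMM moved from -0.57 to 0.12 (edgeR adjusted p = 0.945, range 0.355 to 0.945 over its alternatives).

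**Figure D2:**
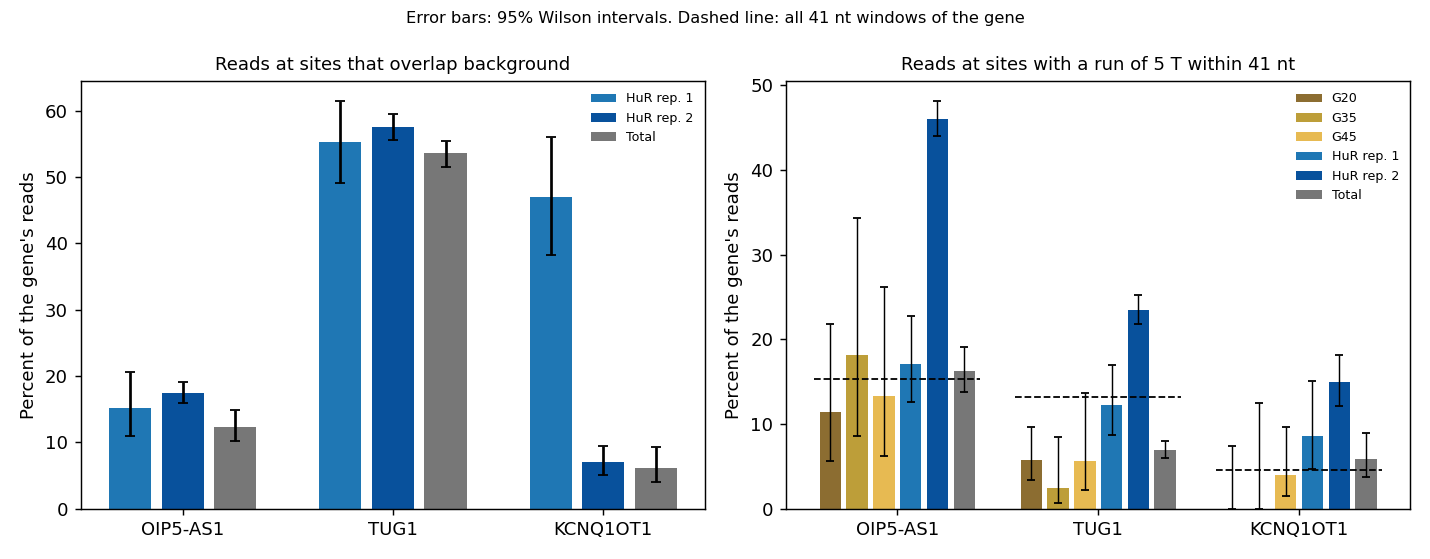
Left, percent of each RNA's reads at sites that overlap a background site on the same strand, for HuR replicates 1 and 2 and Total. Right, percent of reads at sites with a run of 5 T in the 41 nt window around the site, for all 6 libraries, with error bars as 95% Wilson intervals and a dashed line at the share of all 41 nt windows of the gene. TUG1 stands highest on the left with 55.3% and 57.6%, and HuR replicate 2 stands highest on the right for each RNA, up to 46.0% in OIP5-AS1.

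The replicates of HuR found the same places in TUG1 more often than in KCNQ1OT1. Sites of HuR replicate 1 that overlap a site of HuR replicate 2 held 91.4% of the replicate 1 reads in TUG1. The share was 65.9% in OIP5-AS1 and 59.8% in KCNQ1OT1. In KCNQ1OT1 these were 70 reads, 47 of them at the site with the most G45 reads. HuR replicate 2 had 1 read at that site, and the share without it was not computed. Sites of HuR replicate 2 covered 4265 of the 10151 nt of TUG1. They covered 5520 of 38435 nt in OIP5-AS1 and 2392 of 102696 nt in KCNQ1OT1. Whether the order of the RNAs follows this coverage was not tested. Merging the sites of both replicates gave 131 intervals in TUG1, 63 of them with reads in both replicates, 229 intervals in OIP5-AS1 with 66 in both, and 133 intervals in KCNQ1OT1 with 13 in both. HuR replicate 1 was shallow at these RNAs, since 68.6% of its sites in OIP5-AS1 and 72.7% in KCNQ1OT1 held a single read, compared to 7.65% and 8.70% in HuR replicate 2.

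Along OIP5-AS1, the largest part of the HuR reads lay in the long last exon. Exon 4 of OIP5-AS1-201 held 47.4% and 43.5% of the reads of HuR replicates 1 and 2 and 64.5% of those of Total, compared to 23.0%, 9.09% and 31.1% in G20, G35 and G45. Introns of this transcript held 34.1% and 35.1% in HuR, 19.1% in Total and 40.98%, 90.9% and 55.6% in the slices. In G45, 20 of the 25 intronic reads lay at 1 site. The order depended on the transcripts used: with canonical exons the exonic share was 0.737% in HuR and 10.3% in GFP. A further 18.01% and 21.2% of the HuR reads lay past the 3′ end of this transcript. The parts of this reference transcript were chosen after the data were seen.

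The strongest background-free sites of OIP5-AS1 were all in exon 4. The site at chr15:41591230-41591263, shown above with its run of 7 T, had 2 reads in HuR replicate 1, 135 in HuR replicate 2 and 36 in Total, with 133 conversion events in HuR replicate 2 and 6 in Total. The interval chr15:41592102-41592156 had 8 and 94 HuR reads with 9 and 109 events, and chr15:41597252-41597338 had 8 and 88 HuR reads with 6 and 90 events. They were chosen for having no read in G20, G35 or G45. In HuR replicates 1 and 2 they were at 0.210 and 4.20, 0.840 and 2.93, and 0.840 and 2.74 RPM, compared to a largest floor of 0.485 RPM in a slice, so that the first was under this floor in HuR replicate 1. The third had no read in Total either. The top site of Total in OIP5-AS1, chr15:41590314-41590342 at the start of exon 4, was also the top site of HuR replicate 1, with 61 reads in Total, 11 and 23 in HuR and none in background.

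OIP5-AS1, second HuR site without background (chr15:41592115-41592144): agtaactcaaaTTTTTctcttaagtaatct
OIP5-AS1, longest HuR site without background (chr15:41597281-41597310): caaTTTcttgactaaagcTTTTaatgccag
OIP5-AS1, top site of Total and of HuR replicate 1 (chr15:41590314-41590342): ctatcacttctctacacattacctccatg
These 3 sequences are shown to complete the leading exon 4 sites of OIP5-AS1, again with runs of 3 or more T in capitals. The third, which led in Total, contains no such run.

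The background of OIP5-AS1 had its own leading site near the 5′ end. The site of 17 nt at chr15:41576777-41576793, in the first intron of OIP5-AS1-201, had 6, 6 and 20 reads in G20, G35 and G45, 0 and 11 in HuR and 2 in Total. It carried no conversion in any slice and 1 event in HuR replicate 2. The top site of G35, chr15:41587764-41587793 in a later intron, had 13 reads with 14 events in G35, none in the other slices, and 2 and 9 reads in HuR with 2 and 15 events. One leading background site of OIP5-AS1 was therefore without conversions and the other was converted in background and HuR alike.

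The miR-7 site was looked up because OIP5-AS1 is known for it. Among 4 matches to the miR-7 seed in the gene, the site with the best pairing was chr15:41592772-41592797 in exon 4, with an alignment score of 43 out of 48, compared to 24 for the next best. The mature miR-7-5p sequence is from RefSeq and the site from GRCh37, and capitals mark the seed and its match.
miR-7-5p: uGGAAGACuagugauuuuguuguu
OIP5-AS1 miR-7 site (chr15:41592772-41592797): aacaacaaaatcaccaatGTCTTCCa
No read of G20, G35, G45 or either HuR replicate overlapped it, and Total had 1 read there. Within 250 nt on either side there were 2, 0 and 8 reads in the slices, 3 and 95 in HuR with 2 and 93 conversion events, and 62 in Total. Reads of HuR replicate 2 thus lay around the site but were not detectable on it at a floor of 0.0934 RPM.

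**Figure D3:**
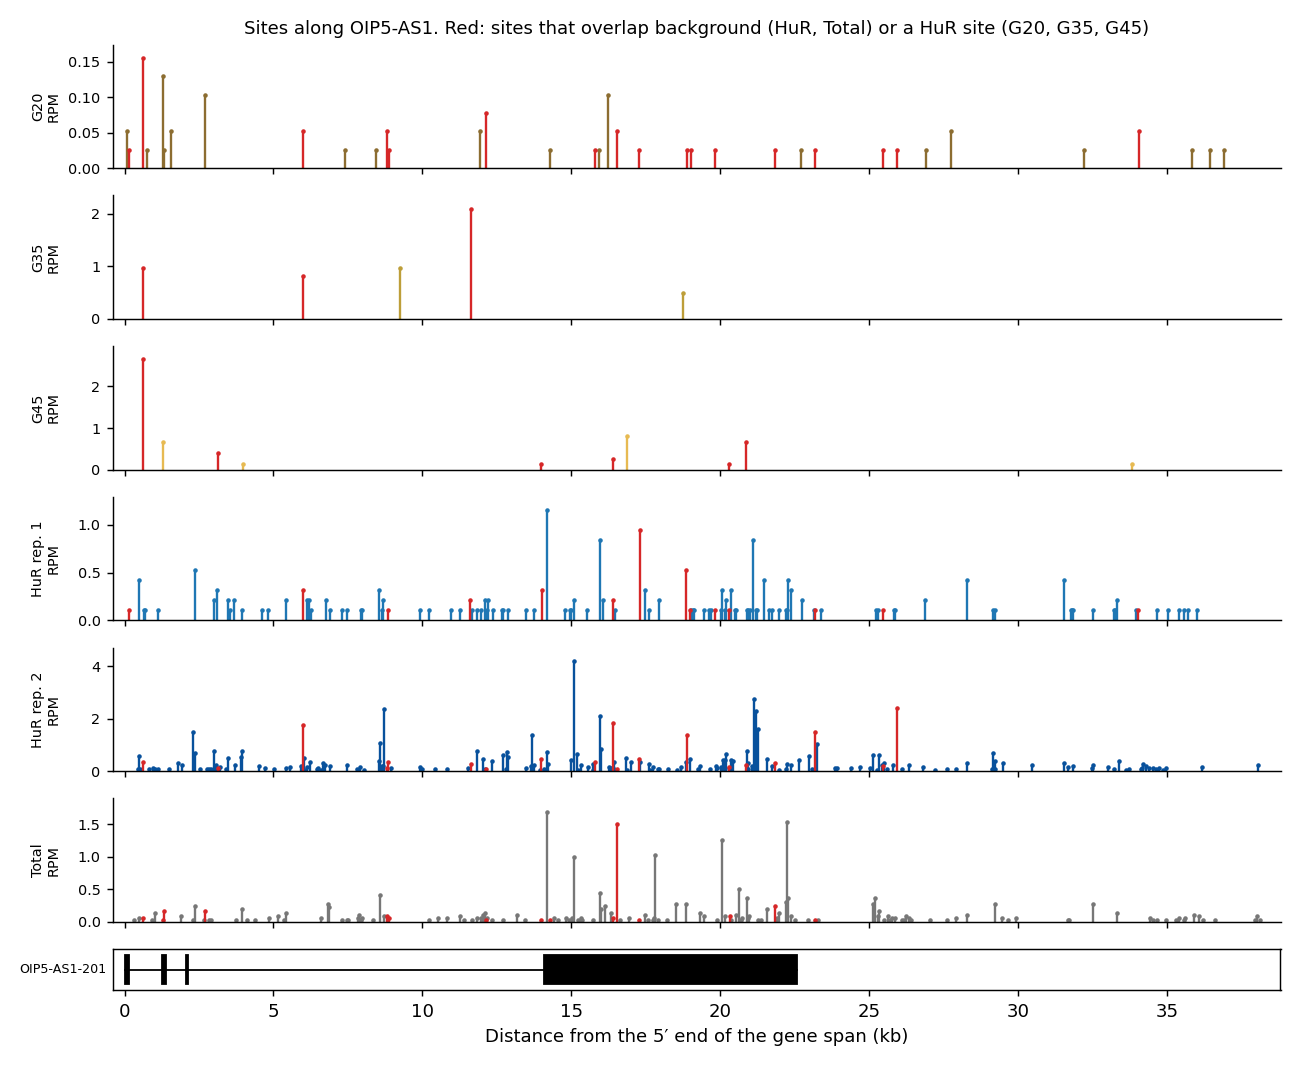
Sites along OIP5-AS1 in the 6 libraries, drawn as RPM (each panel with its own scale) against the distance from the 5′ end of the gene span in kb, above the exons of OIP5-AS1-201. Red marks HuR and Total sites that overlap background, or background sites that overlap HuR. The tallest site of each HuR replicate and of Total lies in the last exon, whereas the tallest site of G20 and G45 lies near the 5′ end, where HuR replicate 1 had 0 reads.

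For the test of exons and introns apart, exons of all GENCODE transcripts were used. Exonic reads of OIP5-AS1 numbered 42, 9 and 44 in the slices and 149 and 1600 in HuR, and intronic reads numbered 19, 24 and 1 in the slices and 58 and 641 in HuR. The exonic share was 72.0% and 71.4% in HuR and 84.5% in Total, and it ran from 27.3% in G35 to 97.8% in G45, so that the slices spread to both sides of HuR. Neither part passed, with a log2 difference of 1.41 (SE 0.80, edgeR adjusted p = 0.282) for exonic and 1.121 (SE 1.04, edgeR adjusted p = 0.534) for intronic reads. Here 0% of 27579 gene parts were called higher and 0% lower with edgeR, 7149 (25.9%) had an unadjusted p below 0.05, and the DESeq2 Wald test called 4662 (16.9%). OIP5-AS1 lies within the span of a same-strand readthrough gene, ENSG00000285920, and reads of the 2 cannot be told apart. On the opposite strand of the OIP5-AS1 span, where OIP5 overlaps its 3′ part, there were 6, 8 and 6 reads in the slices, 44 and 464 in HuR and 303 in Total.

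Along TUG1, HuR and Total reads were weighted toward different parts of the RNA, although most lay at shared sites. Sites that overlap a Total site held 82.8% and 86.3% of the reads of HuR replicates 1 and 2, and sites that overlap HuR replicate 2 held 80.4% of the Total reads. Introns of TUG1-201 held 72.1% and 67.7% of the HuR reads, compared to 27.2% of the Total reads and 60.6%, 36.6% and 53.5% of the reads of G20, G35 and G45. The last exon held 20.9% and 20.1% in HuR and 55.6% in Total, and 22.1%, 39.0% and 39.4% in the slices. The HuR replicates thus differed by far less from each other than from the single Total library. With the gene span cut into 10 equal bins, the first 3 bins held 52.05% and 51.6% of the HuR reads and 19.8% of the Total reads, with 59.7%, 46.3% and 42.3% in the slices. All of these reads count as exonic when every GENCODE transcript is used, because some transcripts retain the introns, so TUG1 had no intronic reads to test with that definition. Exonic reads of TUG1, which are then all of its reads, had a log2 difference of 0.05 (SE 0.73, edgeR adjusted p = 0.974).

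The 3 sites with the most reads in Total, chr22:31371306-31371332, chr22:31372889-31372908 and chr22:31373790-31373837, all in the last exon, had 172, 144 and 131 reads in Total. HuR replicate 1 and the 3 slices had no read at any of them, and HuR replicate 2 had 5, 4 and 0 reads. Conversely, the site with the most reads in both HuR replicates, chr22:31367809-31367866 in the second intron, had 27 and 184 HuR reads with 30 and 200 conversion events, 73 reads in Total, and 2 reads in G20 with 2 events. The leading background-free interval of TUG1, chr22:31368479-31368519 in the same intron, had 3 and 126 HuR reads with 3 and 121 events and 18 reads in Total. It was at 0.315 and 3.92 RPM in HuR replicates 1 and 2, so that HuR replicate 1 lay under the largest floor of a slice.

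TUG1, top site of both HuR replicates (chr22:31367823-31367852): ctctcattctacTTTggaactgctgctctg
TUG1, top site of Total (chr22:31371306-31371332): ctacaactatcttccTTTaccaccgtg
TUG1, HuR site next to a G35 site (chr22:31366804-31366832): atgTTTggggTTTTTTTcTTTcttaatcg
These 3 are the leading site of HuR, the leading site of Total and a HuR site that overlaps the end of a G35 site. Runs of 3 or more T are in capitals. The third, chr22:31366804-31366832 in the first intron, joins a run of 4 G to a run of 7 T. It had 135 reads with 103 events in HuR replicate 2, 3 reads in HuR replicate 1, 9 in Total, and 1, 11 and 2 reads in G20, G35 and G45. The 11 reads of G35, with 19 events, belonged to the site chr22:31366779-31366813, which ends at the G run and does not reach the run of 7 T.

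Conversions also differed at the 2 sites of TUG1 with the most G20 reads. The site chr22:31365727-31365847 in the first intron had 42 reads with 2 conversion events in G20, and 16 and 56 reads with 18 and 65 events in HuR. Conversions over this interval were thus few in G20 and many in HuR, but the reads need not cover the same bases. The interval is 121 nt long with a G share of 44.6%. In HuR replicate 1, 11 of the 16 reads lay at chr22:31365780-31365806, with a G share of 14.8%. The site chr22:31370788-31370839, with a G share of 44.2%, had 22 reads with 9 events in G20, 5 reads in G45, 52 reads with 56 events in HuR replicate 2 and none in HuR replicate 1. Most background reads of TUG1 lay where HuR reads lay too, with 89.4%, 95.1% and 80.3% of the reads of G20, G35 and G45 at HuR sites, compared to 45.9%, 72.7% and 71.1% in OIP5-AS1.

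**Figure D4:**
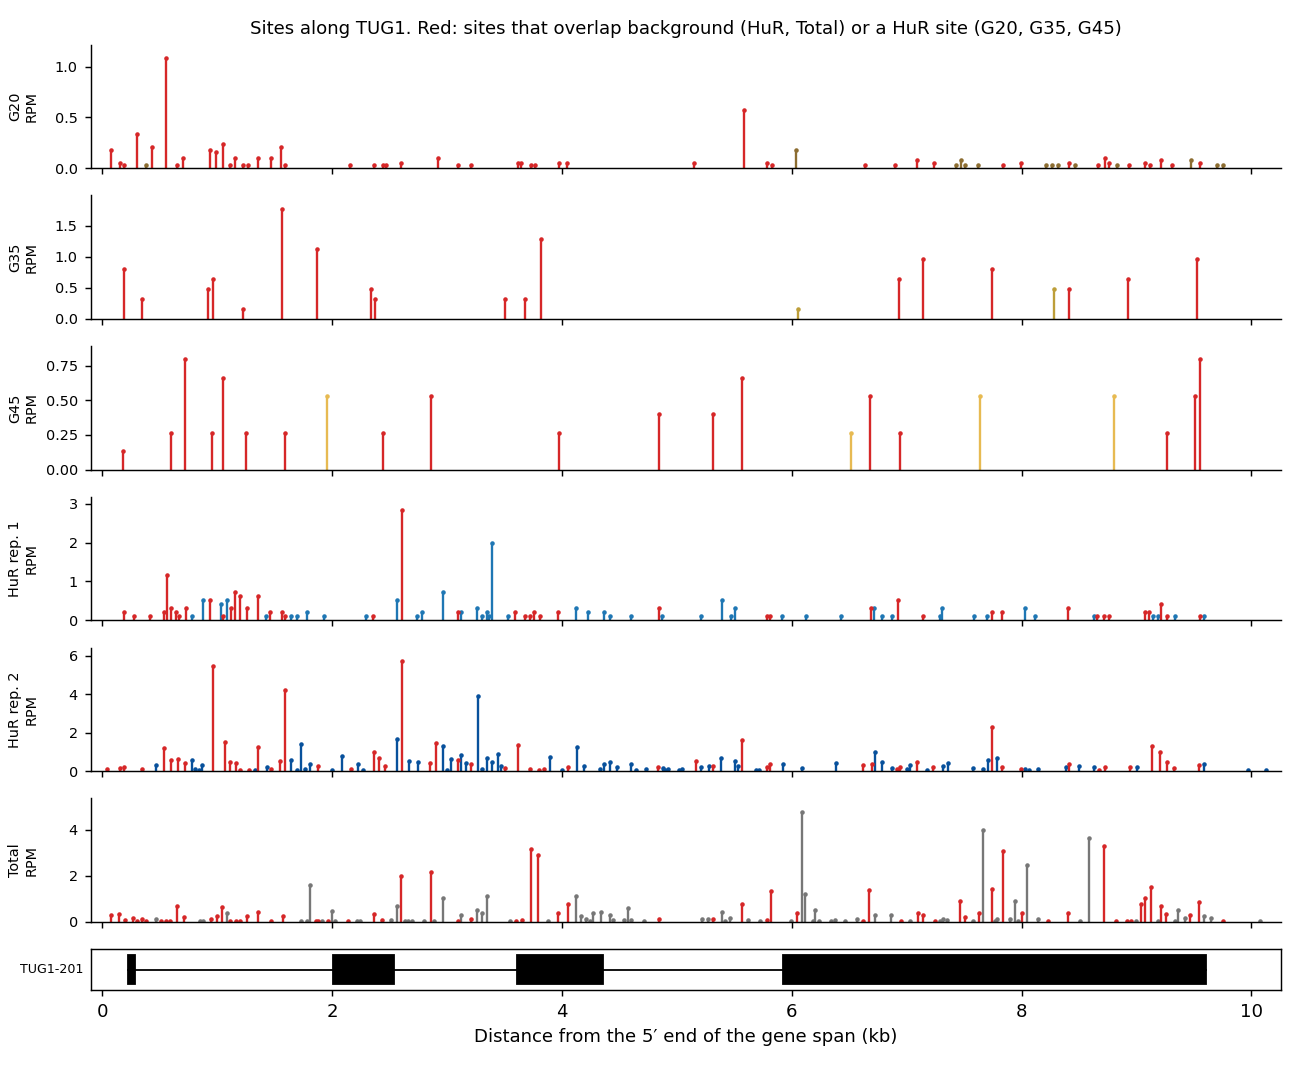
Sites along TUG1 in the 6 libraries, drawn as RPM (each panel with its own scale) against the distance from the 5′ end of the gene span in kb, above the exons of TUG1-201. Red marks HuR and Total sites that overlap background, or background sites that overlap HuR. HuR is highest in the introns of the 5′ part, which includes the site with 27 and 184 reads, and Total is highest in the last exon, which includes the site with 172 reads.

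In KCNQ1OT1 the reads lay toward the 5′ end in every library. The 5′ side of the span, up to its middle, held 93.2% and 94.2% of the HuR reads, 97.8% of the Total reads and 95.8%, 92.6% and 98.0% of the reads in G20, G35 and G45. Nearly all reads lay within the unspliced transcript KCNQ1OT1-201, with 96.6% and 97.5% in HuR and 99.7% in Total. Exonic reads of KCNQ1OT1 had a log2 difference of -0.61 (SE 0.81, edgeR adjusted p = 0.681).

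HuR replicate 2 led the background-free sites of KCNQ1OT1 with little help from HuR replicate 1. The interval chr11:2696659-2696697, shown above with its T runs, had 4 and 47 HuR reads with 3 and 42 events, no background read and no read in Total. It was at 0.420 and 1.46 RPM in HuR replicates 1 and 2, so that HuR replicate 1 lay under the largest floor of a slice. The next, chr11:2719341-2719376 and chr11:2700677-2700698, had 41 and 30 reads in HuR replicate 2 with 39 and 30 events, and none in HuR replicate 1, whose floor was 0.315 RPM. Total spread its reads thinly, with 168 sites for 325 reads and a top site of 10 reads. Antisense reads, which would belong to KCNQ1, were few within the span of KCNQ1OT1, at 6, 9 and 1 in the slices, 17 and 117 in HuR and 23 in Total.

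The background reads of KCNQ1OT1 were rich in G. G made up 34.5%, 41.7% and 41.4% of the bases of the sites, weighted by reads, in G20, G35 and G45, compared to 29.9% and 21.5% in HuR, 16.5% in Total and 22.1% of the gene span. The G45 value and that of HuR replicate 1 include the site of 19 nt. The top site of G35, chr11:2708734-2708771, had 6 reads with 12 events there, 1 read in Total and none in the other libraries, and chr11:2697211-2697230 had 4 reads without an event in G45, 1 read in G20, and 6 reads with 12 events in HuR replicate 2. Not all leading sites were rich in G, since chr11:2679326-2679352, the second site of G45, had 4 reads with 8 events there, a run of 8 T and a G share of 14.8%.
KCNQ1OT1, top site of G35 (chr11:2708738-2708767): aGGGaaGGGaccatacagaggaggctggtc
KCNQ1OT1, second site of G45 (chr11:2679326-2679352): cagaTTTTTTTTgatactctcctgcag
KCNQ1OT1, site of G45 and HuR replicate 2 (chr11:2697211-2697230): aattaGGGttGGGtGGGGag
KCNQ1OT1, another HuR site without background (chr11:2700677-2700698): catacTTTatattattaaTTTg
The first 3 are background sites, with runs of 3 or more T or G in capitals. The last is a background-free HuR site, for comparison.

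**Figure D5:**
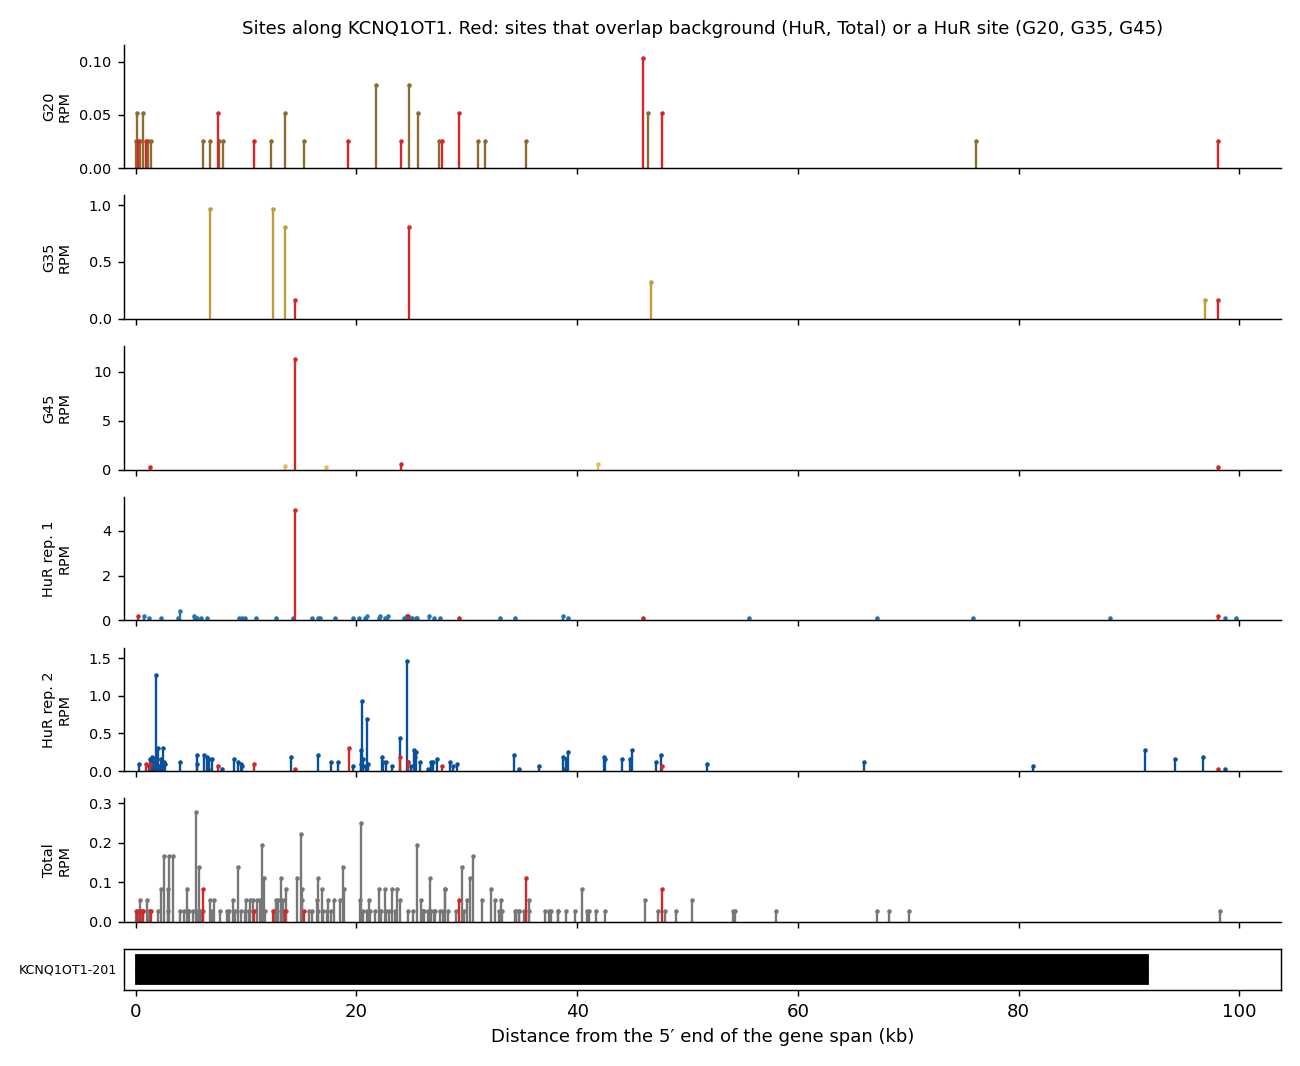
Sites along KCNQ1OT1 in the 6 libraries, drawn as RPM (each panel with its own scale) against the distance from the 5′ end of the gene span in kb, above the extent of KCNQ1OT1-201. Red marks HuR and Total sites that overlap background, or background sites that overlap HuR. A single site dominates G45 with 85 reads and HuR replicate 1 with 47 reads, and is near absent from the other libraries.

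The sequence around the sites was compared through 4 motifs, searched on the gene's strand only, in the 41 nt centred on each site. These were a T run (TTTTT), an AU-rich core (ATTTA), which can share bases with the T run, a G run (GGGG) and the Pumilio motif (TGTANATA). TTTTT was most frequent in HuR replicate 2. In OIP5-AS1, 46.0% of the reads of HuR replicate 2 lay in a window with TTTTT, compared to 17.1% in HuR replicate 1, 11.5%, 18.2% and 13.3% in the slices, 16.3% in Total and 15.3% of all windows of the gene. In TUG1 it was 12.3% and 23.5% in HuR, 5.75%, 2.44% and 5.63% in the slices, 6.95% in Total and 13.2% of all windows. In KCNQ1OT1 it was 8.55% and 14.9% in HuR, 0%, 0% and 3.92% in the slices, 5.85% in Total and 4.59% of all windows. HuR replicate 1 was closer to background than to HuR replicate 2 in OIP5-AS1, so that the share in that RNA rested on the deeper replicate. As a share of sites instead of reads, TTTTT in OIP5-AS1 was at 17.4% and 27.0% in HuR. The slices were then at 13.9%, 20% and 30%, from 36, 5 and 10 sites, so that the groups overlapped.

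GGGG showed the opposite order in TUG1 only weakly, with 28.3%, 24.4% and 23.9% of reads in the slices, 21.3% and 19.8% in HuR, 7.96% in Total and 9.65% of all windows. In OIP5-AS1, GGGG was at 9.84%, 0% and 0% in the slices, 3.32% and 3.25% in HuR and 7.31% of all windows. ATTTA was at 9.95% and 14.4% in HuR and at 0%, 0% and 17.8% in the slices in OIP5-AS1, with 6.78% of all windows. In TUG1, ATTTA was at 3.28% and 3.15% in HuR and 2.21%, 0% and 8.45% in the slices, below the 6.48% of all windows in HuR. In KCNQ1OT1 it was at 0% and 5.47% in HuR and 0% in each slice, with 5.03% of all windows. TGTANATA was rare, with 0.410% and 0.821% of HuR reads in TUG1 compared to 1.005% of all windows, and no HuR read in the other 2 RNAs. In KCNQ1OT1, GGGG was at 33.3%, 25.9% and 10.8% in the slices, 12.8% and 18.3% in HuR, 14.2% in Total and 11.5% of all windows, so that the groups overlapped. T made up 37.9% and 41.4% of the site bases, weighted by reads, in HuR replicates 1 and 2 in OIP5-AS1, compared to 29.8% of the gene span. It made up 35.3% and 34.4% in TUG1, compared to 30.3% of the span, and 26.7% and 34.2% in KCNQ1OT1, compared to 23.8%. Both HuR replicates were thus richer in T than the gene in each RNA. This was not limited to HuR, since G35, G45 and Total in OIP5-AS1 were at 33.6%, 32.0% and 31.8%. Total in KCNQ1OT1 was at 25.4%. G20 in OIP5-AS1, the slices in KCNQ1OT1, and the slices and Total in TUG1 lay below the span.

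The order of HuR against Total differed between the RNAs. On the RPM scale, HuR exceeded Total by 1.147 on the log2 scale in OIP5-AS1 (0.08 and 1.76 in replicates 1 and 2) and by 0.67 in KCNQ1OT1 (0.44 and 0.87), and in TUG1 the value was -0.50 (-1.43 and 0.06). The median of 7746 genes was 1.52, and 35.0%, 22.0% and 7.04% of them lay below OIP5-AS1, KCNQ1OT1 and TUG1. Relative to Total, all 3 thus stood below the median gene in HuR, with TUG1 lowest. For the mean of the slices the same ratio was -2.29 in OIP5-AS1, -0.50 in KCNQ1OT1 and -2.87 in TUG1, with a median of -1.24. Of the 7746 genes, 13.6%, 63.4% and 3.34% lay below these values. The low place of OIP5-AS1 and TUG1 was thus shared by background. KCNQ1OT1 stood above the median gene there, but its slice mean included the site with the most G45 reads. Without that site its slices G20, G35 and G45 were at 1.24, 4.20 and 2.25 RPM, compared to 9.05 RPM in Total. The ratio without the site was not computed, so the place of KCNQ1OT1 in background may rest on it. Total was a single library, so these ratios have no replicate check on its side.

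The genes whose reads followed the most similar pattern over the 6 libraries were sought by distance of centred log2(RPM + 0.1). Closest to OIP5-AS1 were SYNJ2BP-COX16, PCLO and COX16 at distances of 0.18, 0.20 and 0.20, compared to a median of 2.10 over 7745 genes, and SYNJ2BP-COX16 and COX16 overlap on the same strand and share reads. Closest to TUG1 were PATL1, PLAGL2 and URB2 at 0.23, 0.32 and 0.43, and closest to KCNQ1OT1 were ENSG00000286088, IL12A-AS1 and FAM24B at 0.31, 0.42 and 0.50, of which the first and last overlap. OIP5-AS1 and TUG1 were 1.72 apart, and KCNQ1OT1 was 2.44 from OIP5-AS1 and 2.66 from TUG1. The pattern of KCNQ1OT1 included the site with the most G45 reads, with G45 at 13.5 RPM. Without that site G45 was at 2.25 RPM, and the distances without it were not computed.

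Of the other lncRNAs, 20 of 22 listed could be tested, of which edgeR called 0 higher in HuR and 3 lower, 7 had an unadjusted p below 0.05 and DESeq2 called 7, with a median log2 difference of -0.36 compared to -0.02 over all genes. Over all genes 24.7% had an unadjusted p below 0.05 and DESeq2 called 13%, beside the 3.77% called lower by edgeR. The 3 were GAS5, SNHG1 and SNHG12, which are named here after their values were seen. The nuclear RNA MALAT1 had a log2 difference of 1.26 (SE 0.89, edgeR adjusted p = 0.382), and 97.8% of its HuR reads on average overlapped background, compared to 56.5% in TUG1 and 16.3% in OIP5-AS1. MIR17HG, JPX and FTX, the other lncRNAs with the most reads, had log2 differences of -4.26, 2.49 and 2.15. Their edgeR adjusted p values were 0.0869, 0.0633 and 0.112. On average 88.1%, 35.6% and 33.4% of their HuR reads overlapped background, so that MALAT1 was the highest of these. Of the imprinted KCNQ1OT1 domain, 7 of 12 genes could be tested and edgeR called 0 in either direction, with 1 at an unadjusted p below 0.05 and 1 called by DESeq2. KCNQ1, the potassium channel gene on the other strand, had 87, 160 and 137 reads in the slices and 548 and 421 in HuR. The 4 neighbours of OIP5-AS1 and TUG1 (OIP5, NUSAP1, CHP1 and MORC2) had 0 calls by edgeR, 0 by DESeq2 and 0 at an unadjusted p below 0.05. Of 15 mRNAs listed as bound by HuR, edgeR called 0 higher and 1 lower, which was PTMA, 3 had an unadjusted p below 0.05 and DESeq2 called 1. Their median log2 difference was -0.22. The log2 differences of these 15 ran from -3.86 to 1.84.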

How the data were processed

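The libraries were single reads of 50 bp from a HiSeq 2000. The authors trimmed adapters, mapped the reads to hg19 with bowtie and kept uniquely mapping reads with at most 2 T-to-C mismatches with PARalyzer. Removal of PCR duplicates is not stated. They deposited, for each library, whole-number counts per site of reads, conversion locations and conversion events in a table of groups (any read) and a table of clusters (5 or more reads and a minimum of conversions), with no normalization and with replicates kept apart. The sequences of all 1638 group sites on either strand of the 3 spans equalled GRCh37. Every deposited cluster held at least 1 conversion location, and in HuR replicate 1 at least 2. Groups were used unless clusters are named.

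Reads of sites wholly inside a GENCODE release 44 span (lifted to GRCh37) on its strand were summed per gene, without the mitochondrial genome. A site inside several same-strand spans counted for each. HuR (2 libraries) was compared to GFP (3 slices) in edgeR 4.0.16 with TMM, filterByExpr and the quasi-likelihood test, called at an adjusted p below 0.05, and in DESeq2 as an alternative. The standard error is the log2 difference divided by the square root of F. Total was described without a test. The edgeR step was tested on simulated data. Overlap, motif and position shares were computed in Python 3.11.15 with numpy and pandas, with 95% Wilson intervals. The labels do not say that the slices or replicates came from separate cultures.

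The RNAs and gene lists were chosen with earlier results of these data known. Sites named are the 3 with the most reads per RNA and library and the 3 with the most HuR reads (summed RPM of both replicates) without background. Genes named are the 3 RNAs, the 3 nearest in pattern among genes with at least 20 reads in each library, and of each list at most the 4 with the most reads. Besides these, GAS5, SNHG1, SNHG12 and PTMA were named for their edgeR calls, after their values were seen. Alternatives changed the scaling, test, filter, libraries, gene assignment, site tables, read minimum, overlap rule, exon set, motif window and replicates.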

Additional observations from a re-analysis of the deposited data

How the results depend on the processing

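Genes called at an adjusted p below 0.05 numbered 916 of 20138, compared to 422 with DESeq2 size factors, 307 with library totals, 2622 with the DESeq2 Wald test, 4677 with each site counted once, and 0 with all 6 libraries, with clusters or with sites of 5 or more reads. Leaving out 1 library gave 0 (without G20) to 1099. Gene parts went from 0 to 4662 with the DESeq2 Wald test, 1533 without the filter, 7208 with each site counted once, and 0 to 1418 (without G35) when leaving out 1 slice. The parts tested numbered 27579 with the Wald test, 69333 without the filter, 16086 with each site counted once and 34335 without G35. OIP5-AS1 kept its direction and missed the threshold in all 14 alternatives (log2 difference 0.62 to 3.02). KCNQ1OT1 turned to 0.79 with library totals, 0.31 without G45 and 0.12 without its site of 19 nt, and its exonic reads to 0.35 without G45. With clusters KCNQ1OT1 was at -3.35, the lowest of its alternatives. Leaving out 1 library gave -1.08 to 0.31 for KCNQ1OT1 and -1.17 to 0.35 for its exonic reads. TUG1 turned to -0.018 with all 6 libraries, -1.02 with each site counted once and -0.47 without HuR replicate 2, with 0.79 as the highest value on leaving out 1 library. With library totals TUG1 was at 1.94, the highest of its alternatives (edgeR adjusted p = 0.255). Exonic TUG1 turned to -0.0570 with DESeq2 size factors, -0.0571 with the DESeq2 Wald test, -0.45 with canonical exons and -0.39 without HuR replicate 2. With each site counted once it turned to -1.03 and passed (edgeR adjusted p = 0.00993), as 3359 of the 16086 parts were called lower. Its highest value was 0.76. With canonical exons, intronic reads of TUG1 could be tested and were at 1.64 (SE 0.94, edgeR adjusted p = 0.280).

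The share of HuR reads that overlap background in OIP5-AS1 was 20.5% on either strand, 3.05% with background sites of 5 or more reads, 14.4% with the HuR site mostly covered, 10.6% as a share of sites, 24.5% with HuR sites of 5 or more reads and 6.29% to 17.52% on leaving out 1 library. In TUG1 it was 20.6%, 40.96%, 45.5% and 58.9% under the same rules from the second on, and 25.3% to 57.6% on leaving out 1 library. Conversion events per 100 HuR reads of OIP5-AS1 were 112.8 in clusters and 110.05 at sites of 5 or more reads, and in GFP 107.7 and 15.6. In GFP clusters of KCNQ1OT1 they were 77.9. Clusters are selected for conversions, so their rates do not compare HuR with GFP. With canonical exons the exonic share was 0.737% in HuR and 10.3% in GFP for OIP5-AS1, 60.5% and 86.9% for TUG1, and 0% and 3.47% for KCNQ1OT1. With each site counted once it was 63.5% in HuR for OIP5-AS1, and 95.1% in HuR and 85.9% in GFP for KCNQ1OT1. Counted in the same way, TTTTT in GFP was 21.3%, 8.18% and 4.76% in OIP5-AS1, TUG1 and KCNQ1OT1. In HuR it was 22.2%, 19.97% and 9.98%, so that HuR and GFP were nearly equal in OIP5-AS1. The causes were not tested. Counting only sites inside 1 gene span gave no value for OIP5-AS1, which lies within another gene. No paired analysis was possible because the GFP slices carry gel sizes and no replicate number shared with HuR. Depth limits HuR replicate 1 and the slices G35 and G45 most.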
